A study of Mus musculus with 10 samples.

Results

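The transcripts of 9 genes of retinoid synthesis, binding and reception were followed across 10 arrays of mouse embryonic fibroblasts: the retinaldehyde dehydrogenases Aldh1a1, Aldh1a2 and Aldh1a3, the membrane protein Stra6, the cytosolic binding proteins Crabp1 and Crabp2, and the receptors Rara, Rarb and Rarg. They were found by gene symbol among the 12384 genes that the array names singly, and 12 probe sets (groups of short probes that each read 1 transcript region) measured them. The group was picked because Aldh1a1 was among the transcripts that differed most between cells with wild-type G9a and cells given empty vector. The difference between those 2 groups is therefore given below as a description, without a test, and for Aldh1a1 a test is given only for a comparison that uses neither group.

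G9a, encoded by Ehmt2, is a methyltransferase of histone H3. Each array read RNA from fibroblasts in which G9a had been deleted. In the group called delta the cells were given back only an empty vector, and in the group called WT they were given wild-type G9a with a FLAG tag. The K165A and H1093K groups received FLAG-G9a with a single substituted residue, H1093K being a catalytic mutant. Another pair of arrays is titled only as deleted, and the labels do not say what those cells received. Each group had 2 arrays. The age, strain and sex of the cells, and whether each group is a single line, are not given in the sources used here either.

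Retinoic acid is made from vitamin A (retinol) in 2 oxidation steps. Retinol dehydrogenases such as Rdh10 first give retinaldehyde, and the Aldh1a enzymes then convert it irreversibly to retinoic acid. Stra6 imports retinol from its plasma carrier Rbp4, Crabp1 and Crabp2 hold retinoic acid in the cytosol, and the receptors Rara, Rarb and Rarg, paired with retinoid X receptors, bind retinoic acid response elements in DNA and switch transcription with the ligand. In embryos these enzymes and receptors pattern the hindbrain, limbs, heart and other organs.

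Signals are the deposited linear array intensities. Differences and their 95% intervals were taken on the log2(signal + 16) scale, which damps the change of dim transcripts, and a transcript was called changed at a limma adjusted p under 0.05 over all 13576 probe sets kept by a filter on mean signal. The correlation between the 2 arrays of a group was 0.983 to 0.989 across all probe sets. Of the 9 genes, 6 were kept by the filter and 3 (Aldh1a3, Rara and Stra6) were too dim to be tested. Aldh1a2 and Crabp1 passed it only through the arrays labelled deleted, so they had to differ there, and no count over the kept genes is used as support.

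Ehmt2 itself was read first. The brighter of its 2 probe sets gave 473 and 415 in delta, 676 and 620 in WT, 704 and 725 in K165A, 461 and 494 in H1093K, and 1678 and 1750 on the arrays labelled deleted. There H1093K overlapped delta and was not called against it (difference 0.10, adjusted p = 0.735). The dimmer probe set gave 7.14 and 36.5 in delta and 116 and 55.7 in H1093K, without overlap but also without a call (1.48, adjusted p = 0.272). The arrays labelled deleted had the highest signal in the brighter probe set, at odds with a plain reading of their label. The dimmer probe set gave 162 and 247 there, also its highest group mean. The labels do not say whether the probes lie in the deleted part of the gene or read the introduced copy, so the signal does not check the deletion. Directions drawn from the arrays labelled deleted are given as those of the arrays with that label.

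The synthesis enzymes divided into one that was low and one that was high with wild-type or K165A G9a. Aldh1a1, which oxidises retinaldehyde and is abundant in the eye and liver, gave signals of 2049 and 1624 in delta, 198 and 208 in WT, 433 and 191 in K165A, 2159 and 1836 in H1093K, and 1395 and 1310 on the arrays labelled deleted. The 4 arrays of WT and K165A all lay under 500, and the other 6 arrays all lay at 1310 or above. The order of the group means was H1093K (1997 ± 229, SD, n = 2), delta (1837 ± 300), the arrays labelled deleted (1353 ± 60.1), K165A (312 ± 171) and WT (203 ± 6.40). The arrays of H1093K and delta overlapped, as did those of K165A and WT. Replicate 1 of K165A, at 433, stood above the other 3 arrays of K165A and WT.

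The tested comparison was that of the 2 substituted proteins. These 2 groups also lay apart in the brighter Ehmt2 probe set, at 704 and 725 in K165A and 461 and 494 in H1093K. In the dimmer Ehmt2 probe set they overlapped. The part of the Ehmt2 level in differences between K165A and H1093K was not tested. Aldh1a1 was lower with K165A than with H1093K by 6.59-fold, a log2 difference of -2.72 (95% interval -3.35 to -2.09, n = 2 each, limma adjusted p = 0.000245). The choice of Aldh1a1 for its fall with wild-type G9a did not use these arrays, but K165A was already known to resemble WT when the genes were picked. The difference passed the threshold in each of the 21 alternative analyses, in which it ran from -3.28 to -2.16. Over all genes, 8.30% passed in that comparison (3.74% higher and 4.56% lower). Of the 6 retinoid genes kept by the filter 2 did, Aldh1a1 lower and Aldh1a2 higher, the latter kept only through the arrays labelled deleted.

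Some markers of other cell types moved with Aldh1a1 and others did not. The summed signal of 8 epithelial markers was 3825 to 4134 in delta, 1142 to 1237 in WT, 1019 to 1162 in K165A, 2689 to 2902 in H1093K, and 4600 to 4644 on the arrays labelled deleted. Krt7, a keratin of simple epithelia, was 4.61-fold lower with K165A than with H1093K (difference -2.21, adjusted p = 1.35e-05). It made up most of the epithelial sum in delta and H1093K. Krt18 had group means of 568 in delta, 170 in WT, 162 in K165A and 383 in H1093K, and Krt19 of 436, 280, 222 and 323. Cdh1, the epithelial cadherin, had group means of 106 in delta, 171 in WT, 128 in K165A and 99.4 in H1093K. Of the 6 tested epithelial markers, 3 were lower with K165A than with H1093K, 0 higher and 3 not called. Over all genes, 4.56% were lower and 3.74% higher. Fibroblast markers differed too: of 11 tested, 3 were higher with K165A than with H1093K, 2 lower and 6 not called. Pdgfrb had group means of 1331 in K165A and 865 in H1093K, and Thy1 of 990 and 1710. Epcam, a defining epithelial surface protein, stayed under 16 on both arrays of WT, K165A and H1093K. The 4 mesothelial markers summed to 4351 to 4439 in delta, 2193 to 2294 in WT, 1891 to 2000 in K165A and 3721 to 4136 in H1093K, and 4 neural markers to 897 to 1074 in delta and H1093K and 411 to 493 in WT and K165A. Msln made up most of the first sum and Stmn2 of the second, whereas Tubb3 and Gap43 stayed at mean signals of 11.3 to 45.2 in these 4 groups. Wt1, a defining mesothelial factor, stayed under 16 on both arrays of all 4 of these groups. The part of such cells in the Aldh1a1 result was not tested. In bulk RNA such as this, fewer cells of a type and less RNA per cell cannot be told apart.

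Aldh1a2, the main retinoic acid producing enzyme of the early embryo, ran the other way. Its signals were 1.34 and 3.11 in delta, 66.9 and 80.5 in WT, 64.8 and 50.4 in K165A, 1.21 and 5.35 in H1093K, and 520 and 413 on the arrays labelled deleted. Every array of delta and H1093K lay under 6, every array of WT and K165A lay between 50 and 81, and the arrays labelled deleted stood above both. With K165A it was higher than with H1093K by 1.93 on the log2(signal + 16) scale (1.40 to 2.47, adjusted p = 0.000732) and higher than with delta by 2.01 (1.47 to 2.54, adjusted p = 0.00052). These comparisons share the K165A arrays and are not independent of each other. H1093K was lower than WT (difference -2.22, -2.76 to -1.69, adjusted p = 0.000294). Against delta, H1093K differed by 0.07 (-0.46 to 0.61, adjusted p = 0.943), an interval that does not show the levels to be alike. K165A differed from WT by -0.29 (-0.82 to 0.25). No fold is given against delta or H1093K, because their mean signals of 2.22 ± 1.25 and 3.28 ± 2.92 lay under the added 16. The K165A over H1093K difference was called in each of the 19 alternatives that tested it, but its size ran from 0.85 to 3.96 with the number added before taking logs, and 2 stricter filters left the gene untested.

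Aldh1a3, the third enzyme, prominent in the eye and nasal region of the embryo, was dim on every array. Its 3 probe sets gave 5.13 to 42.2, 4.78 to 14.0 and 1.40 to 12.2, and in the first of them the 2 arrays lay close together in delta (12.6 and 12.1) but far apart in K165A (35.6 and 14.3). Aldh1a7, a rodent gene that is a close copy of Aldh1a1, gave 23.4 to 46.9 outside the arrays labelled deleted and 124 and 109 on them. It was too dim to be tested and did not show the low signals in WT and K165A that Aldh1a1 showed. Whether the Aldh1a1 probes also read Aldh1a7 RNA was not tested.

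**Figure D1:**
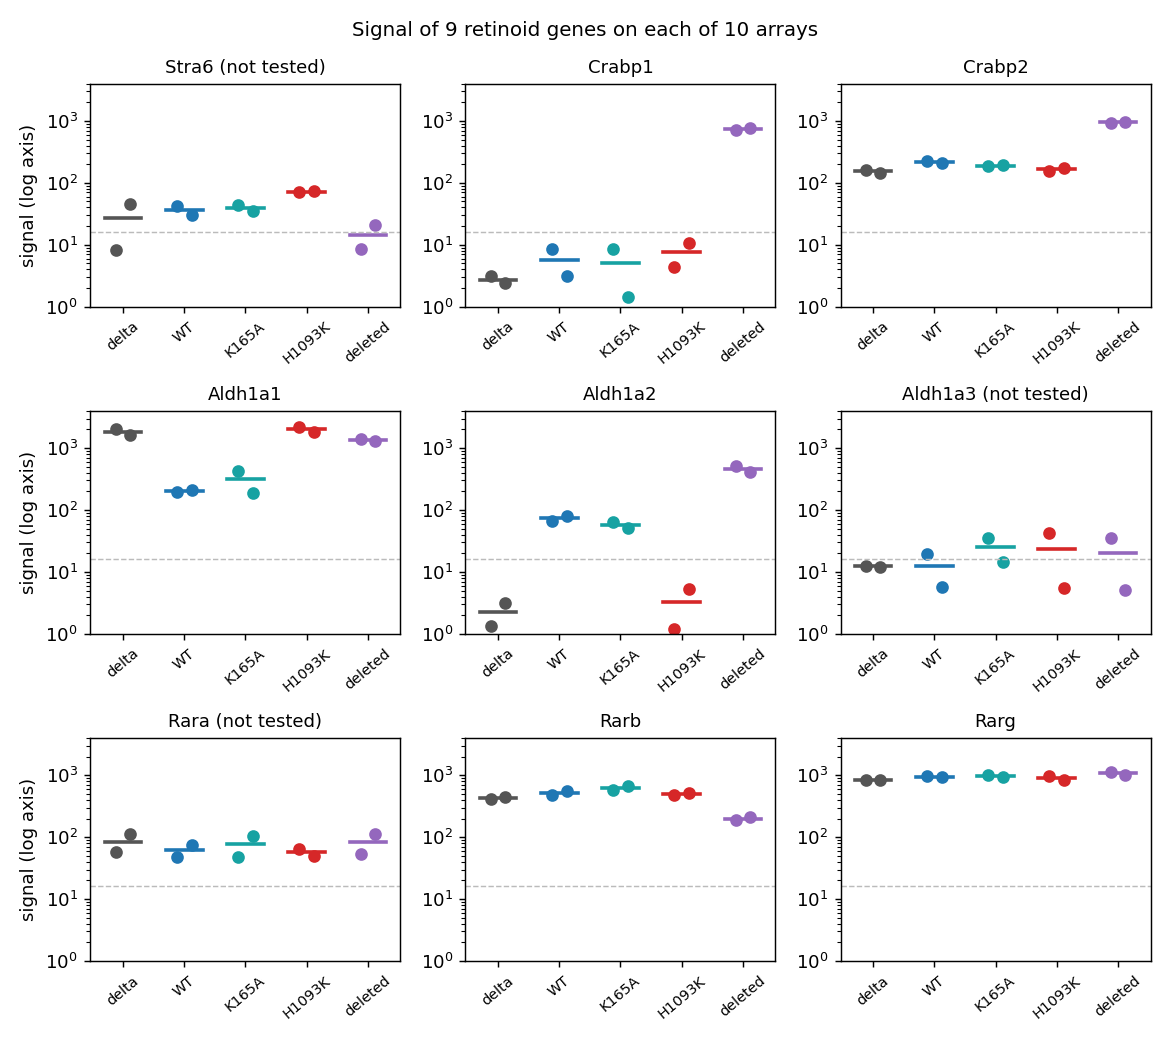
Signal of each of the 9 retinoid genes on each array (vertical axes, array intensity on a log scale; points are single arrays, grouped by cell type; the dashed line marks 16, the number added before logs were taken). Aldh1a1 is low and Aldh1a2 raised on the 4 arrays of WT and K165A, while Crabp1 rises above 16 only on the 2 arrays labelled deleted.

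The DNA before the start of these 2 enzyme genes is shown because their transcripts ran in opposite directions and their upstream sequence differs in CpG content, the dinucleotide at which DNA is methylated. The 250 bases upstream of each start come from RefSeq on GRCm38.p6, in which 7 of the 9 genes had a window, and CpG is in capitals. For Aldh1a1 the table lists 2 starts; the window shown lies at chr19:20601718-20601967 on the plus strand and holds 1 CpG, and the window of the other start, chr19:20492333-20492582, holds 3. The Aldh1a2 window lies at chr9:71215539-71215788 on the plus strand and holds 40.
Aldh1a1: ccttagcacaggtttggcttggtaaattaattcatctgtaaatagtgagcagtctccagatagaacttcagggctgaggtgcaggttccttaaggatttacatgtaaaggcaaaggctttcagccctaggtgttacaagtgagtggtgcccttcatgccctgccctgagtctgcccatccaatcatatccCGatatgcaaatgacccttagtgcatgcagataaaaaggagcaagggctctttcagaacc
Aldh1a2: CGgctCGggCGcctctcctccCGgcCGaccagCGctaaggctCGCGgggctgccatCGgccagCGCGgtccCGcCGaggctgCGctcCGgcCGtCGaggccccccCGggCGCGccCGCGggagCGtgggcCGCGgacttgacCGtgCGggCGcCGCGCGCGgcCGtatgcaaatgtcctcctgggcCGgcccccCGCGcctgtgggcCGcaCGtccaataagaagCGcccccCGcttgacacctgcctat
Among all 32851 upstream windows of this length the median was 6 CpG. A count as low as that of the Aldh1a1 window was found in 18.8% of windows, and a count as high as that of the Aldh1a2 window in 1.31%. Which start the fibroblasts use, and the methylation of either window, were not measured on these arrays.

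**Figure D2:**
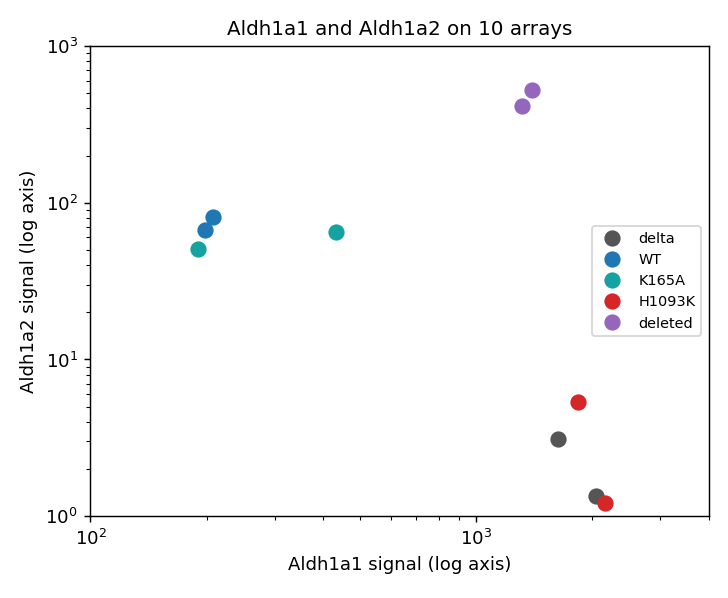
Aldh1a1 signal (horizontal axis) against Aldh1a2 signal (vertical axis), both array intensities on log scales, with 1 point per array coloured by group. The 4 arrays of delta and H1093K lie at high Aldh1a1 and low Aldh1a2, the 4 of WT and K165A at low Aldh1a1 and Aldh1a2 between 50.4 and 80.5, and the 2 arrays labelled deleted are high in both.

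Transcripts of uptake and cytosolic binding were not called in any comparison among the cells given vector or G9a. WT against delta, the contrast behind the choice of genes, is left out of that statement. Stra6, the retinol importer, gave 8.36 and 45.1 in delta, 41.7 and 30.2 in WT, 44.4 and 35.2 in K165A, 70.2 and 72.9 in H1093K, and 8.57 and 20.7 on the arrays labelled deleted. The 2 H1093K arrays were the highest of the 10, but the delta arrays lay far apart and the probe set was too dim to be tested. Crabp1, a binding protein of retinoic acid found in embryonic mesenchyme and neural crest derivatives, gave between 1.43 and 10.9 on all 8 arrays outside the deleted label. On the arrays labelled deleted it gave 719 and 772, with a mean of 746 ± 37.5 (SD, n = 2).

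Crabp2, which carries retinoic acid to its receptors in the nucleus, gave 164 and 142 in delta, 227 and 206 in WT, 185 and 195 in K165A, 158 and 175 in H1093K, and 934 and 975 on the arrays labelled deleted. Both WT arrays lay above all arrays of delta, K165A and H1093K. The difference of K165A from H1093K was 0.17 (-0.11 to 0.45, adjusted p = 0.510), and that of K165A from delta was not called (adjusted p = 0.195). H1093K differed from delta by 0.11 (adjusted p = 0.811) and from WT by -0.35 (-0.63 to -0.07, adjusted p = 0.143). None of these 4 differences passed the threshold, in the analysis given or in any of its alternatives.

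Between K165A and H1093K the receptor differences were smaller than those of Aldh1a1 and Aldh1a2. Rara, the broadly expressed receptor, gave 47.3 to 114 over all arrays and was too dim to be tested. In 4 of the 5 groups replicate 2 lay above replicate 1, and the groups overlapped.

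Rarb is itself a classical target of retinoic acid, through a response element just upstream of one of its starts, and its upstream sequence is shown for that reason. The window lies at chr14:16575477-16575726 on the minus strand of GRCm38.p6, with 2 half-sites in capitals.
Rarb: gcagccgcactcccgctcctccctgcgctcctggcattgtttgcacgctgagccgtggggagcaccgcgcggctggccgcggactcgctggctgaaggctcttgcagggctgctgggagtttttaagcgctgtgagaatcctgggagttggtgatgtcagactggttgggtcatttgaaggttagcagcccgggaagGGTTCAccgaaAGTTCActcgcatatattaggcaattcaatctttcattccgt
The search looked on both strands for 2 half-sites, each of them AGGTCA, its variant GGGTCA, the variant AGTTCA or the variant GGTTCA, in the same direction and 5 bases apart. The Rarb match spans bases 53 to 37 before the start. Of the 15 windows of the 7 genes it was the only 1 with such a match, and 0.0883% of all windows (29 of 32851) held one. The half-sites searched for included both of those in the Rarb window, at its spacing of 5 bases. The pattern thus covered that element, and the rarity of the match is not used as support. The match describes the letters of the window and is not a measurement of receptor binding.

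Rarb signals were 411 and 441 in delta, 480 and 556 in WT, 586 and 659 in K165A, 481 and 515 in H1093K, and 187 and 208 on the arrays labelled deleted. The 2 K165A arrays were the highest and the 2 arrays labelled deleted the lowest, with no overlap with any other group. K165A was 1.44-fold above delta, a log2 difference of 0.53 (0.27 to 0.79, adjusted p = 0.0160). That call was lost without delta replicate 1 (adjusted p = 0.0879), without delta replicate 2 (0.0509) and without K165A replicate 2 (0.102). K165A differed from H1093K by 0.31 (0.05 to 0.57, adjusted p = 0.155), which passed with the replicate number as a block (adjusted p = 0.0373). H1093K differed from delta by 0.22 (adjusted p = 0.510) and from WT by -0.05 (-0.31 to 0.20, adjusted p = 0.858), both without a call.

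Rarg, the receptor prominent in skin and cartilage, was read by 2 probe sets. The brighter gave 843 and 827 in delta, 960 and 924 in WT, 993 and 943 in K165A, 972 and 838 in H1093K, and 1130 and 1020 on the arrays labelled deleted. The arrays labelled deleted lay above all others, WT and K165A overlapped, and H1093K reached from the level of delta, with replicate 2 at 838, up to that of K165A. K165A differed from H1093K by 0.10 (-0.10 to 0.30, adjusted p = 0.615) and from delta by 0.21 (adjusted p = 0.183). In the second probe set, whose signals were 264 to 431, the difference of K165A from H1093K was 0.37 and was not called (adjusted p = 0.199).

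Aldh1a1 is left out of the counts that use the delta or WT arrays, which chose it, so 5 tested genes remain there. Among these 5, Aldh1a2 and Crabp1 were kept by the filter only through the arrays labelled deleted, so the counts are a description. K165A against delta called 2 of the 5 (Aldh1a2 and Rarb, both higher), beside 13.1% of all genes (5.32% higher and 7.75% lower). H1093K against WT called 1 of 5 (Aldh1a2, lower), beside 9.27% of all genes (4.81% higher and 4.46% lower). H1093K against delta called 0 of 5 with limma, and 0 at an unadjusted p under 0.05, beside 1.01% of all genes (0.516% higher and 0.490% lower). K165A against WT called 0 of 5, with Rarb at an unadjusted p under 0.05, beside 0% of all genes; 433 of 13576 probe sets had an unadjusted p under 0.05 there, and the smallest adjusted p was 0.430. Each of these comparisons shares arrays with WT against delta. In that contrast the fit placed 3 of the 6 genes past the threshold (Aldh1a1 lower, Aldh1a2 and Crabp2 higher), beside 13.5% of all genes (5.85% higher and 7.70% lower), and nothing is read from that count.

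**Figure D3:**
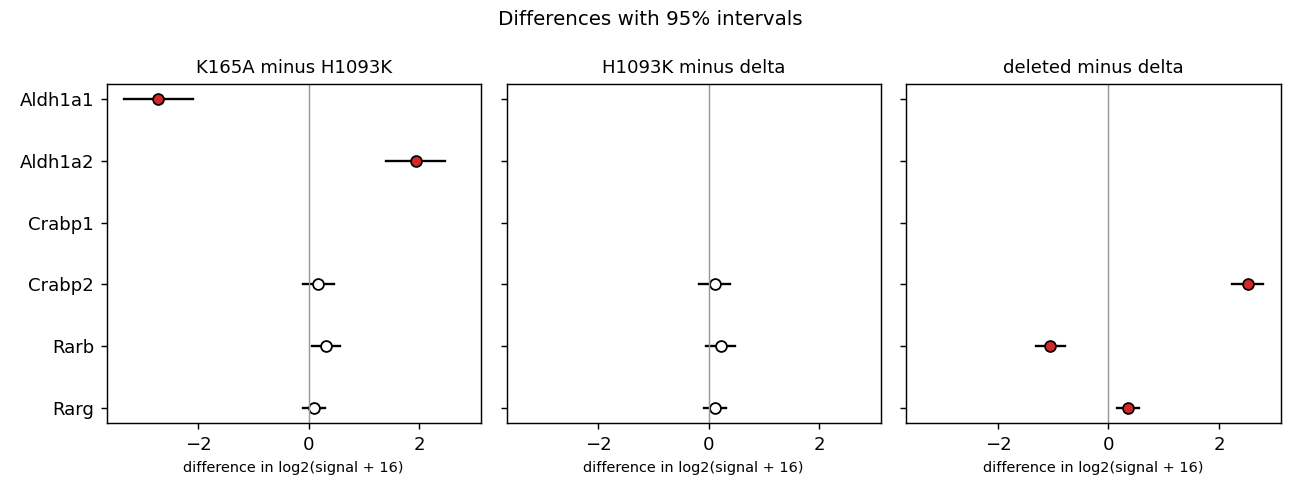
Differences on the log2(signal + 16) scale for the tested retinoid genes (points) with their 95% intervals (bars), in one panel per comparison; filled red points have a limma adjusted p under 0.05, open points do not, and a gene whose mean signals both lay under 16 is not drawn. Aldh1a1 is drawn only for K165A minus H1093K, at -2.72, and Aldh1a2 and Crabp1 are left out of the panel of the arrays labelled deleted, where the difference of Crabp2, at 2.52, is the longest drawn.

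On the arrays labelled deleted, Aldh1a2 had a mean signal of 466 ± 76.1 and Crabp1 of 746 ± 37.5 (SD, n = 2), beside 2.22 ± 1.25 in delta for Aldh1a2 and under 11 on every other array for Crabp1. No test is given for these 2 genes there, because only those arrays brought them past the filter. The other 3 tested genes (Crabp2, Rarb and Rarg, again without Aldh1a1) were all called against delta, 2 higher and 1 lower, beside 36.5% of all genes (17.4% higher and 19.1% lower). Crabp2 was 5.75-fold higher, a log2 difference of 2.52 (2.24 to 2.81, adjusted p = 3.71e-07). Rarb was 2.07-fold lower, a log2 difference of -1.05 (-1.31 to -0.79, adjusted p = 8.26e-05). Rarg was 1.28-fold higher in its brighter probe set (0.36, 0.15 to 0.56, adjusted p = 0.0126), a call lost without delta replicate 2 (adjusted p = 0.0592) and without deleted replicate 1 (0.0976), and its second probe set was not called (0.36, adjusted p = 0.0963). Against WT, 2 of the same 3 genes were called, Crabp2 higher and Rarb lower, beside 35.8% of all genes (18.0% higher and 17.7% lower).

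Markers of other cell types also differed on those arrays. Wt1, a transcription factor of mesothelium, gave 1294 and 1388 there and 1.36 to 12.5 on the other 8 arrays, and Upk3b, another mesothelial marker, gave 4863 and 5399 against 2.35 to 42.0. Msln, by contrast, had its lowest group mean there, 1174 against 3920 in delta. Of the epithelial keratins, Krt18 gave 2108 and 2035 there and 141 to 583 elsewhere, while Krt7 had a mean of 98.0 there and 2609 in delta. Among the fibroblast markers, Dcn gave 1357 to 1519 on the arrays labelled deleted and 5.28 to 54.0 elsewhere, and Pdgfra gave 1628 to 1743 against 5.48 to 81.7. Others went the other way: S100a4 gave 1151 and 1255 there against 4725 to 7178 elsewhere. Thy1 had a mean of 1189 there, 1870 in delta and 989 in WT. The whole fibroblast list summed to 48076 to 63585 over all 10 arrays, with 9 of its 12 genes at or above 100 on both arrays of each group outside the deleted label, while Lum stayed at 12.3 to 53.9. The summed macrophage list was 555 to 704 over all arrays, and the summed endothelial list 307 to 474. Of the endothelial markers, Kdr gave 81.3 to 128 and Eng 71.3 to 178, while Tie1 and Vwf were under 16 on every array. The part of these cell types in the levels of Crabp1, Crabp2, Aldh1a2 and Rarb on these arrays was not tested.

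Of 48 other genes of the retinoid pathway, 40 were on the array and 20 were bright enough to be tested. Between K165A and H1093K, 3 were lower, 0 higher and 17 were not called, beside 4.56% of all genes lower and 3.74% higher; the median difference was -0.04, beside -0.01 over all genes. Rdh10, which makes retinaldehyde from retinol in the embryo, gave 3792 and 4034 in delta, 2108 and 2135 in WT, 2325 and 2466 in K165A, 3510 and 3740 in H1093K, and 506 and 482 on the arrays labelled deleted. The groups split as for Aldh1a1 except on the arrays labelled deleted, which were lowest. Rdh10 was 1.51-fold lower with K165A than with H1093K (difference -0.59, -0.76 to -0.43, adjusted p = 0.000712), in all 21 alternatives.

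The other 2 lower genes act on either side of retinoic acid. Dhrs3, which turns retinaldehyde back to retinol and is induced by retinoic acid, gave 433 and 433 in delta, 307 and 309 in WT, 319 and 319 in K165A, 475 and 439 in H1093K, and 331 and 315 on the arrays labelled deleted. It was 1.41-fold lower with K165A than with H1093K (-0.50, -0.72 to -0.28, adjusted p = 0.0118). Fabp5, a fatty acid binding protein that can pass retinoic acid to the receptor Ppard, was 1.40-fold lower (-0.48, -0.70 to -0.27, adjusted p = 0.0120), and its second probe set was lower too (-0.61, adjusted p = 0.0255). Both calls were lost when only the arrays compared entered the fit (adjusted p = 0.0668 for Dhrs3 and 0.0657 for Fabp5). Single arrays also decided them: without H1093K replicate 1, K165A replicate 1 or K165A replicate 2 the adjusted p of Dhrs3 was 0.101, 0.0606 or 0.0547, and without H1093K replicate 2 or K165A replicate 1 that of Fabp5 was 0.0942 or 0.0826.

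In the other comparisons of the same list, K165A against delta called 1 higher and 3 lower, beside 5.32% and 7.75% of all genes. H1093K against WT called 3 higher and 0 lower, beside 4.81% and 4.46%. H1093K against delta called 0, beside 0.516% and 0.490%. The gene called higher with K165A than in delta was Ncoa1, a receptor coactivator (0.44, adjusted p = 0.0410). Cyp26a1, which degrades retinoic acid and is among its most inducible targets, gave 10.8 to 57.7 on all arrays, and Lrat, which stores retinol as ester, gave 0.857 to 30.7. Neither was bright enough to be tested.

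On the arrays labelled deleted, 5 of the 20 were higher than in delta, 4 lower and 11 not called, beside 17.4% and 19.1% of all genes, with a median difference of 0.08 beside -0.01 over all genes. Rdh10 was 7.70-fold lower (-2.95, adjusted p = 9.2e-09). Rbp4, the plasma carrier of retinol, gave 5122 to 6666 on the 8 other arrays and 1190 and 1220 on these, 4.61-fold lower than delta (-2.21, adjusted p = 1.9e-07). Dhrs3 was lower (-0.41, adjusted p = 0.00962), a call lost without deleted replicate 2 (0.0638), as was Dgat1, which esterifies retinol among other substrates (-0.27, adjusted p = 0.0291). Higher were Fabp5 (2.30-fold, 1.20, adjusted p = 8.7e-06), the alcohol dehydrogenase Adh5 (1.78-fold, 0.83, adjusted p = 1.92e-05), the retinol saturase Retsat (0.58, adjusted p = 0.00403), the partner receptor Rxra (0.45, adjusted p = 0.0176) and the coactivator subunit Med1 (0.33, adjusted p = 0.0224). The calls of Rxra, Med1 and Dgat1 were each lost in leave-outs of single arrays, Rxra in 3 and Med1 and Dgat1 in all 4 of the arrays compared, and the second Rxra probe set was not called (adjusted p = 0.999). Fewer were called higher, 3 in place of 5, without delta replicate 2, without deleted replicate 1, without deleted replicate 2 and with a filter at the 60th percentile, and 2 in place of 4 were lower without deleted replicate 2.

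**Figure D4:**
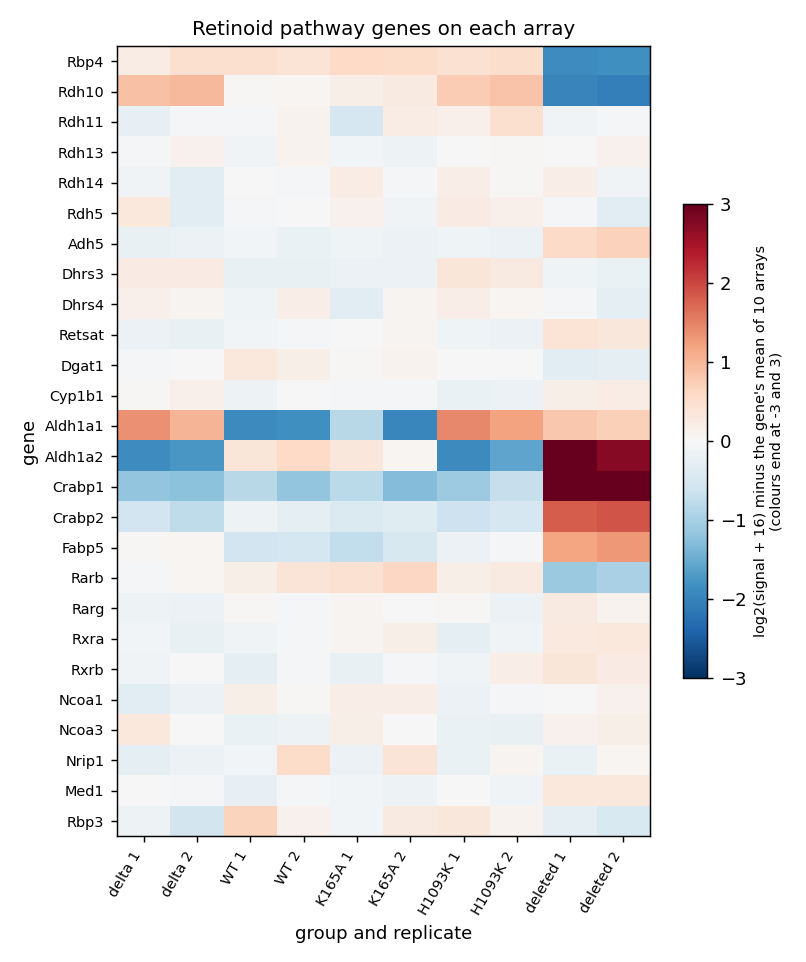
Tested retinoid and other pathway genes (rows) on each of the 10 arrays (columns), coloured by log2(signal + 16) minus the gene's mean over the 10 arrays. Aldh1a1, Rdh10, Dhrs3 and Fabp5 are lower in WT and K165A than in delta and H1093K, and on the 2 arrays labelled deleted Rbp4, Rdh10 and Rarb are lowest and Aldh1a2, Crabp1, Crabp2 and Fabp5 highest.

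Genes known to respond to retinoic acid were counted from a list of 33, of which 25 were on the array and 13 were tested; 4 of the list are among the 9 genes above and 3 are in the pathway list. Between K165A and H1093K, 0 were higher, 2 lower (Dhrs3 and the circadian repressor Bhlhe40, -0.79, adjusted p = 0.000443) and 11 not called, beside 3.74% and 4.56% of all genes. H1093K against delta called 0 of 13, beside 1.01% of all genes. On the arrays labelled deleted, 7 were higher than in delta, 5 lower and 1 not called, beside 17.4% and 19.1% of all genes. Gata4 and Meis1 passed the filter only through those arrays and had to be higher there. With the filter set on the other 8 arrays, a choice made after seeing the data, 11 were tested. Of these 5 were higher and 5 lower, beside 16% and 19.3% of all genes under that filter. The median difference was 0.70 with those 2 genes and -0.37 without them, so its direction rests on them. A filter at the 60th percentile left 3 higher, a count given without its share over all genes and not read further. The higher ones were Crabp2, the zinc finger factors Gata4 (mean signal 46.2 in delta and 353) and Gata6 (441 and 1878), the homeobox genes Meis1 (62.4 and 425), Meis2 (140 and 653) and Hoxa5, and Rai14. The lower ones were Rarb, Tgm2, Bhlhe40, Dhrs3 and Foxa1 (238 and 11.2). Members of this list thus moved in both directions on these arrays.

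The 5 genes whose signals most resembled those of Aldh1a1 over the 10 arrays were Clu (Pearson r = 0.976), 2310030G06Rik (0.967), Nsdhl (0.964), Fdps (0.962) and Rsad2 (0.962). The coefficients describe 10 arrays in 5 groups that share the same contrast between WT or K165A and the rest, and no p is given. Clu, a secreted chaperone, had mean signals of 1020 in delta, 1157 in H1093K, 347 in WT, 391 in K165A and 1039 on the arrays labelled deleted. Fdps, an enzyme of sterol synthesis, had 3441, 3674, 2074, 2123 and 3584 in the same order. Among the retinoid genes themselves the coefficient with Aldh1a1 was highest for Crabp1 (0.28), then Crabp2 (0.12), Rarg (-0.17), Aldh1a2 (-0.28) and Rarb (-0.48), so none of the other tested members resembled it closely.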

How the data were processed

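Each array's deposited intensity per probe set, on a linear scale, was made by the authors with GCOS 1.4, per the submitters' processing notes; its background and scaling options are not stated. RNA was extracted with Trizol and column cleaning and labelled in one round, per the labels' protocols. Median signals were 181 to 199, and no further scaling was applied. Of 22690 probe sets, 64 were controls and left out; 20380 had 1 gene symbol, 691 several and 1555 none, and only the first kind was named.

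The tests used log2(signal + 16) and left out the dimmest probe sets, those with a mean signal below the 40th percentile (104). In R 4.3.3, limma 3.58.1 (lmFit, and eBayes with a trend on mean intensity) used all 10 arrays and 5 group means (5 residual and 4.69 prior degrees of freedom), with Benjamini-Hochberg adjustment over 13576 probe sets (7758 genes) in each of 8 comparisons. The fit was tested on simulated data. Where a gene had several probe sets, the brightest was counted. The members and lists were chosen with earlier results of these data known. The text names every member, Ehmt2, the 5 genes nearest to Aldh1a1, pathway genes that passed a test, and response and marker genes behind a count; Cyp26a1, Lrat, Aldh1a7 and the single markers were named after their values were seen.

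The labels do not say whether arrays of 1 group were separate cultures, so p-values reflect only the spread among the arrays, possibly a technical one. An exact two-sided permutation test of 2 arrays against 2 cannot go below 0.333. Arrays of the same replicate number deviated together from their group means (r = 0.229 to 0.509 over all 10 pairs of groups). The number was therefore taken to pair them. The main fit, behind the values given unless stated otherwise, left this pairing out, and a fit with it as a block was an alternative. Others were the added number, filters, scaling, the variance model, the arrays in the fit and leaving out each array. The number of arrays limits the precision. Upstream sequences are from RefSeq on GRCm38.p6; the build behind the array annotation is not stated.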

Additional observations from a re-analysis of the deposited data

How the results depend on the processing

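The counts of retinoid genes called, here with Aldh1a1, Aldh1a2 and Crabp1 included as a description, depended on the filter. WT against delta, the contrast behind the choice of genes, is left out of these counts. With a filter at the 60th percentile, and with one on the mean without both deleted arrays (chosen after seeing the data), Aldh1a2 was no longer tested, nor was Crabp1. The count fell from 2 to 1 for K165A against H1093K and for H1093K against WT. It also fell from 3 to 2 for K165A against delta, and from 5 to 3 for the arrays labelled deleted against delta and against WT. Leaving out 1 array at a time gave 2 to 3 for K165A against delta, where the main fit gave 3. The count stayed at 0 for H1093K against delta and for K165A against WT. It stayed at 2 for H1093K against WT and for K165A against H1093K. For deleted against delta it was 4 to 6, beside 5 in the main fit, and for deleted against WT it stayed at 5. Uncalled differences changed sign in 3 cases. Without 1 array at a time, Rarb in H1093K minus WT ran from -0.16 to 0.0502 (the latter without WT replicate 2). Rarg (the brighter probe set) in H1093K minus WT ran from -0.17 to 0.0447, and in K165A minus H1093K from -0.0060 to 0.20, the reversed values being those without H1093K replicate 2. The cause was not tested. With the replicate number as a block, the probe sets called rose from 1664 to 2863 for WT against delta, 1576 to 2719 for K165A against delta, 118 to 471 for H1093K against delta, 1138 to 1997 for H1093K against WT and 1046 to 1898 for K165A against H1093K. Beside the Rarb call given above, the block raised the count of retinoid genes called from 5 to 6 for deleted against WT. It changed no other count of them given here. The second Rarg probe set was called in deleted against delta without deleted replicate 1 (adjusted p = 0.0462). Dim probe sets limit what can be said of Aldh1a3, Rara and Stra6.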
